A study of Homo sapiens with 18 samples.

Results

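The Hippo pathway effectors YAP and TAZ, the TEAD factors that they bind and a set of their target genes were followed in MDA-MB-231, an established triple-negative breast cancer cell line. The 10 genes were taken by name: YAP1, WWTR1 (which encodes TAZ), TEAD1, TEAD4, CCN1, CCN2, ANKRD1, AMOTL2, LATS2 and AXL. They are 10 of the 62703 genes in the deposited tables, and all 10 passed the filter on low counts in every comparison. Polyadenylated RNA had been sequenced from cells in which the histone methyltransferase EZH2 or the transcription factor E2F1 was knocked down, or in which EZH2 was inhibited.

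YAP and TAZ are coactivators without a DNA-binding domain of their own, and they act mainly through TEAD factors. The kinases LATS1 and LATS2 phosphorylate them and hold them in the cytoplasm, whereas low Hippo activity, a stiff matrix or a tense actin skeleton lets them enter the nucleus. CCN1, CCN2 and ANKRD1 are the most widely used readouts of this activity, AMOTL2 and LATS2 are targets that feed back on YAP, and the receptor tyrosine kinase AXL is a target known for invasion and drug resistance in breast cancer cells. EZH2 is the histone H3 lysine 27 methyltransferase of the Polycomb group, and E2F1 drives genes of the cell cycle.

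There were 5 groups of 2 libraries each. Control shRNA, shEZH2 and shE2F1 cells had been transduced with lentivirus for 24 h and selected in 2 ug/ml puromycin for 72 h, so that the control cells also carried a hairpin vector and had been exposed to the drug. The other cells had been treated for 72 h with DMSO or with 1 uM GSK126, a small molecule that inhibits the methyltransferase activity of EZH2 and leaves the protein in place. Each knockdown rests on 1 hairpin, per the methods of the study, and all groups on 1 cell line. Nothing in the labels says that libraries of a group came from separate cultures, so p-values measure the spread between these libraries, which may be technical.

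Sequence upstream of the start sites is shown first, because several of the genes are known TEAD targets and the short TEAD motif can be read directly in it. In the RefSeq promoter table (GRCh38.p14; 250 bases before to 50 bases after each start site), 7 of the 10 genes had an entry, with 10 promoters between them. CCN1, TEAD1 and TEAD4 had no entry. The motif GGAATG, searched on both strands (CATTCC on the other), occurred at least 1 time in 14% of all 35116 promoters, at least 2 times in 1.37% and at least 3 times in 0.128%. CCN2 held 3 matches and ANKRD1 held 2. YAP1 and LATS2 held 1 each, AMOTL2 and AXL held 1 in 1 of their 2 promoters, and WWTR1 held none. For AMOTL2 and AXL the match lay in the downstream promoter, inside the gene, and the upstream promoter held none. The match of LATS2 lay past its start site and is not shown. The windows of 30 bases below run 5′ to 3′ on the strand of the gene, with the motif in capitals.
CCN2, minus strand, chr6:131951524-131951553: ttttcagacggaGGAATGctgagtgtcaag
CCN2, minus strand, chr6:131951459-131951488: ggaaggtggggaGGAATGcgaGGAATGtcc
ANKRD1, minus strand, chr10:90921290-90921319: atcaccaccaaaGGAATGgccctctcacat
ANKRD1, minus strand, chr10:90921198-90921227: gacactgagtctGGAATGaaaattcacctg
AMOTL2, minus strand, chr3:134374499-134374528: ctgaaactctcaCATTCCtggcatagcagc
AXL, plus strand, chr19:41226531-41226560: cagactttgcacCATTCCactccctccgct
YAP1, plus strand, chr11:102110273-102110302: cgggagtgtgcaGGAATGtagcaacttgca
The 3 matches of CCN2 began 169, 104 and 95 bases before its start site, and the 2 of ANKRD1 began 220 and 128 bases before. No promoter of the 7 genes held the AP-1 motif TGACTCA (4.95% of all promoters), the E2F motifs TTTCGCGC or TTTGGCGC (1.15%) or a CArG box, the motif of SRF (1.29%), on either strand. These are matches of letters and were not tested as binding sites.

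The libraries held 13198932 to 20055550 expected counts, so that 3 counts correspond to 0.15 to 0.227 CPM (counts per 1000000 counts of the library), by counting error only. EZH2 stood at 153 and 181 CPM in control shRNA and at 52.6 and 44.8 in shEZH2, and E2F1 at 143 and 138 in control shRNA and at 26 and 22.5 in shE2F1. E2F1 was also lower in shEZH2, at 62.4 and 32.3 CPM (log2 change -1.59 ± 0.23 (SE), adjusted p = 0.000172). Of the 5 markers of the line, 4 fell in shEZH2, with log2 changes of -1.33 for VIM, -1.08 for LGALS1, -0.42 for KRT8 and -0.39 for KRT18, and LGALS1 also fell in shE2F1 (-0.68). In shEZH2 only 2 of the 5 fell with GC content and length corrected (median -0.12, against -0.42), and 2 with the 4 libraries of the comparison alone. The summed level of the 5 markers was 5311 to 5449 TPM (transcript abundance scaled by gene length and library) there against 8192 to 8703 in control shRNA and 7695 to 7830 in shE2F1. Of 7 luminal markers, ESR1 and PGR were at or near 0 throughout and ERBB2, GATA3 and EPCAM were expressed. Their sum was 62.1 to 75.9 TPM in control shRNA, 58.2 to 74 in shEZH2 and 59.7 to 62.7 in shE2F1. CDH1 rose in both knockdowns (log2 change 2.23 and 3.91), from 0.847 and 0.18 CPM to 2.41 and 2.65 and to 9.82 and 6.41. In shEZH2 the rise of CDH1 no longer passed without replicate 2 of control shRNA or without replicate 2 of shEZH2. ERBB2 fell in shEZH2 (-0.73) and EPCAM fell in shE2F1 (-1.24). The sum of 4 endothelial markers was 1.83 to 1.94 TPM in control shRNA, 2.99 to 3.62 in shEZH2 and 3.24 to 4.28 in shE2F1, and VWF rose in both knockdowns, from 0.106 and 0.3 CPM to 1.81 and 2.65 and to 1.39 and 0.808. Of the leukocyte markers, CD3E and MS4A1 were at or near 0, whereas CD68, a lysosomal gene, moved with the groups and made up nearly all of a sum of 31.5 to 38.8 TPM in shEZH2, 147 to 158 in shE2F1 and 79.1 to 81.4 in control shRNA. The part of these differences in the results was not tested.

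Per gene length, in TPM, the 3 secreted or muscle-type readouts and AXL were more abundant in control shRNA than YAP1, WWTR1, TEAD1 and TEAD4. In control shRNA the level was 912 and 917 TPM for CCN1, 668 and 683 for AXL, 174 and 196 for ANKRD1 and 163 and 189 for CCN2. YAP1 followed at 78.5 and 82.4, AMOTL2 at 73.1 and 75.5 and TEAD1 at 59.1 and 67.7. TEAD4 (25.2 and 28.2) and WWTR1 (24.4 and 27.4) overlapped, as did ANKRD1 and CCN2, and LATS2 was lowest at 13.2 in both libraries. CCN1 was highest and LATS2 lowest in all 5 groups, while CCN2 ranked just below CCN1 in shEZH2, at 760 and 1047 TPM, and in shE2F1, at 79.6 and 89.3, it lay below ANKRD1 and AXL and overlapped YAP1 (87 and 93.6). AXL, next to CCN1 in control shRNA, had 171 and 256 TPM in shEZH2, where its range overlapped that of ANKRD1, and 169 and 170 in shE2F1, below ANKRD1.

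**Figure D1:**
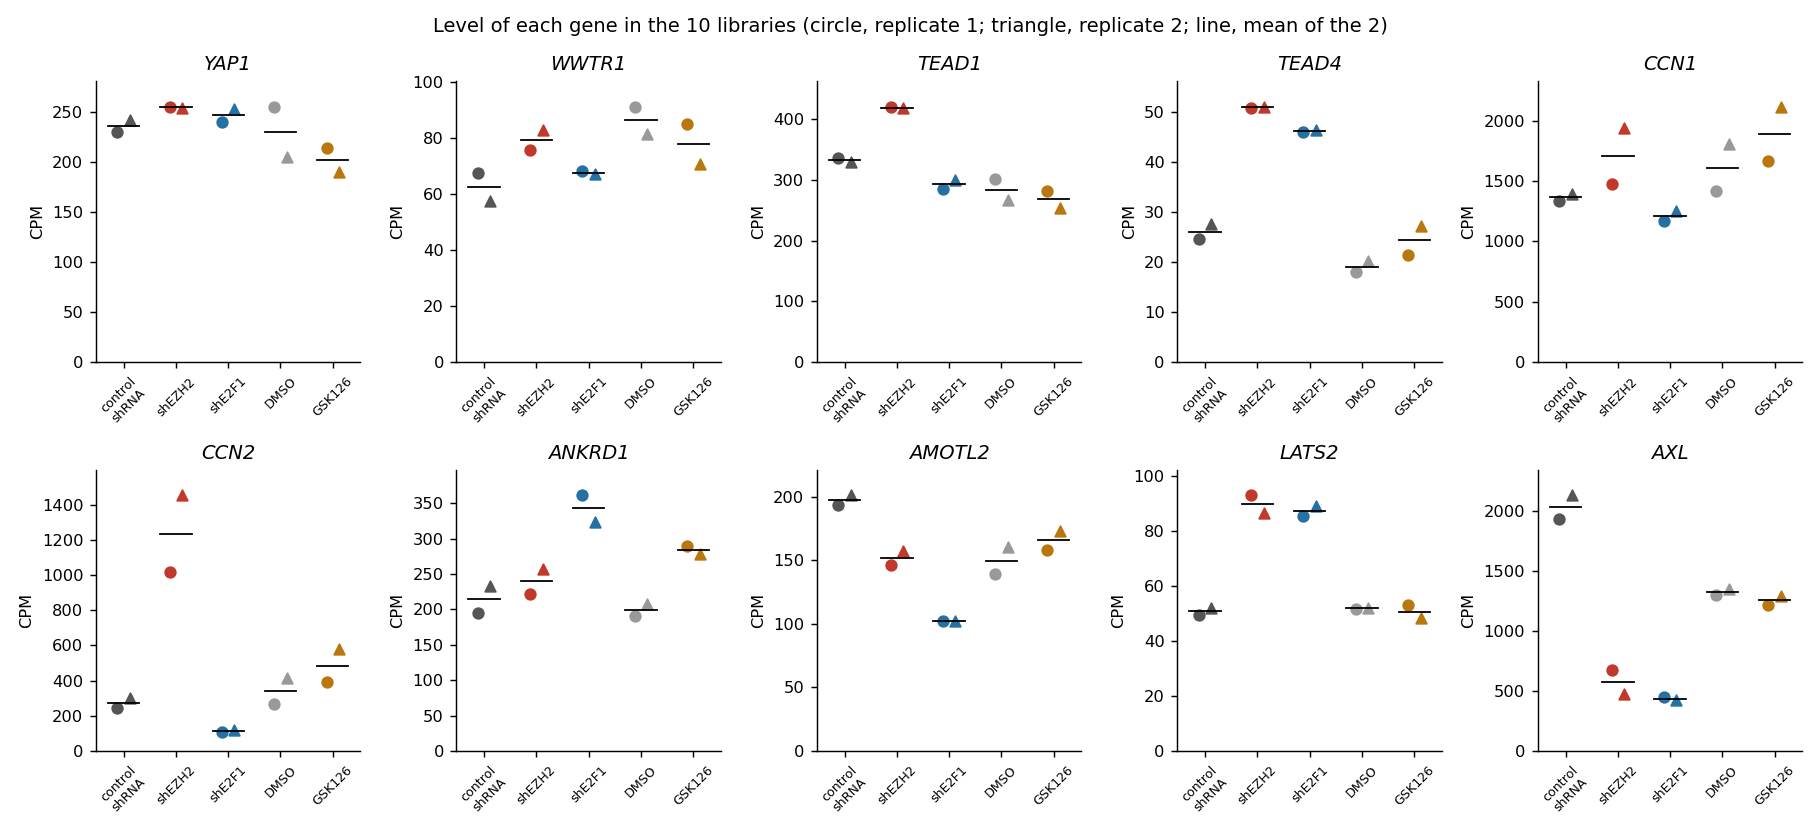
Level of each of the 10 genes in CPM (vertical axis, from 0) in the 10 libraries, by group; circles and triangles are replicates 1 and 2 and lines are the mean of both. CCN2 lies at 1018 and 1453 CPM in shEZH2 and at 110 and 119 in shE2F1, on opposite sides of control shRNA at 246 and 302, while AXL lies below control shRNA in both knockdowns.

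The first question was how these genes stand after loss of EZH2 or of E2F1. Among the members, CCN2 rose 4.48-fold in shEZH2 and fell 2.40-fold in shE2F1, AXL fell in both (3.56-fold and 4.68-fold), TEAD4 and LATS2 rose in both by less than 2-fold, and YAP1 and WWTR1 passed the test in neither. Both knockdowns were compared with the same 2 control libraries. A gene was said to rise or fall at an adjusted p under 0.01 in the edgeR quasi-likelihood test over all genes tested, and was called when the change was also over 2-fold. In shEZH2, 4 members rose and 2 fell, beside 20.2% of all 15373 genes tested that rose and 21.5% that fell (41.7% together), and 2 members were called, beside 18.2% of all genes. In shE2F1, 3 members rose and 3 fell, beside 13.6% and 16.5% of all genes (30.1% together), and 2 were called, beside 11.6%. In shEZH2 the share of members called is close to that of all genes. The median log2 change of the 10 members was 0.32 in shEZH2 and -0.06 in shE2F1, beside -0.02 and 0.00 over all genes.

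**Figure D2:**
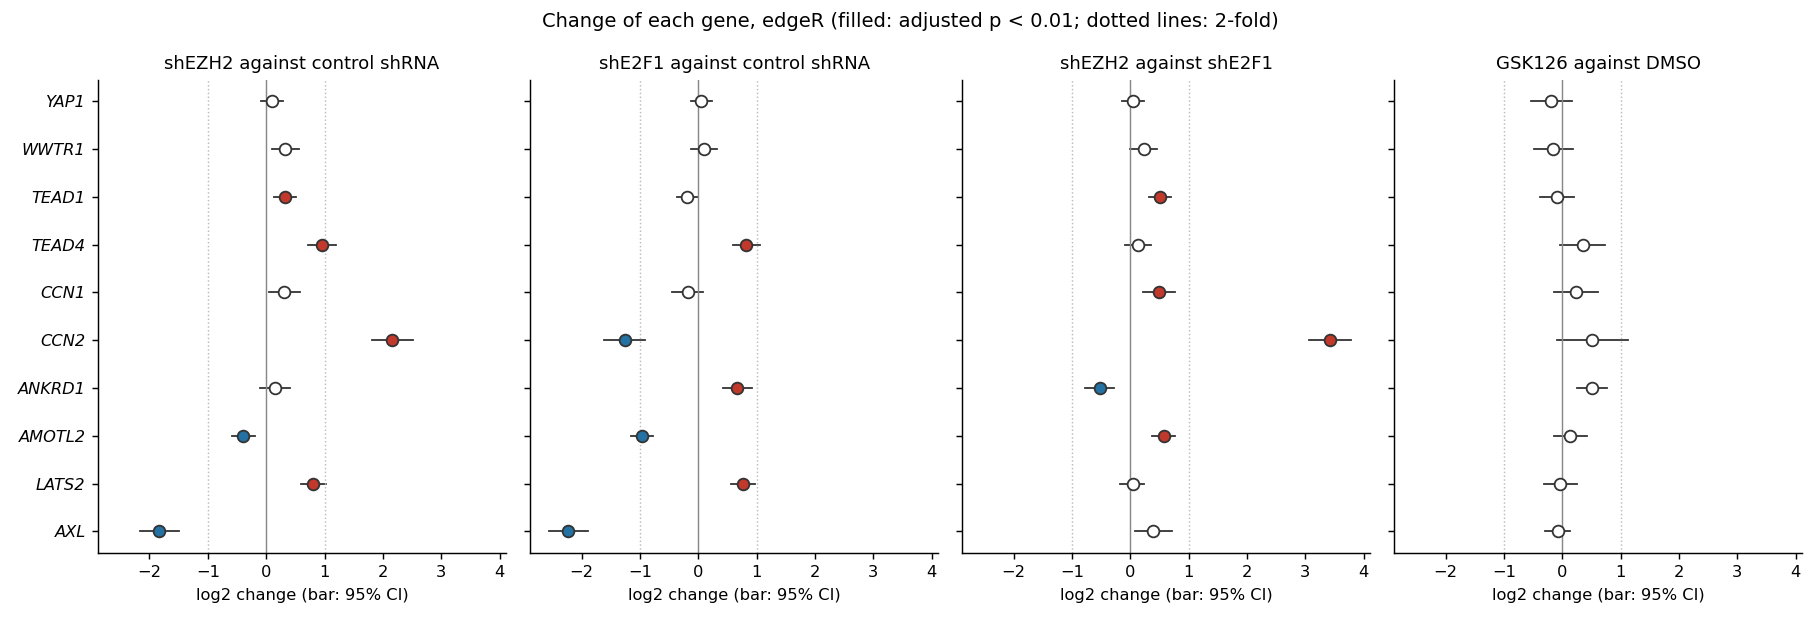
Log2 change of each gene (horizontal axis) in 4 comparisons, with 95% confidence intervals from edgeR; filled points passed an adjusted p under 0.01 and dotted lines mark 2-fold. CCN2 is at 2.16 in shEZH2 and -1.26 in shE2F1, AXL is at -1.83 and -2.23, and no point is filled for GSK126 against DMSO.

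The coactivators passed the test in neither knockdown. YAP1 (chr11:102110447-102233424 on GRCh38) had 230 and 242 CPM in control shRNA, 255 and 254 in shEZH2 and 240 and 253 in shE2F1. Its log2 change was 0.10 ± 0.08 in shEZH2 (95% interval -0.09 to 0.28, adjusted p = 0.356) and 0.05 ± 0.08 in shE2F1 (-0.13 to 0.24, adjusted p = 0.634). The upper ends of these intervals were 0.28 and 0.24, and they reflect only the spread between these libraries in this fit. The sign in shEZH2 turned with GC content and length corrected (-0.10). WWTR1 (chr3:149517235-149736714) had 67.5 and 57.7 CPM in control shRNA, 75.7 and 82.8 in shEZH2 and 68.2 and 67 in shE2F1. Both shEZH2 libraries lay above both controls, with a log2 change of 0.33 ± 0.11 that missed the threshold (adjusted p = 0.0214). The change of WWTR1 in shEZH2 was 0.22 to 0.44 when 1 library at a time was left out, and -0.02 with an offset from effective gene length. In shE2F1 the groups overlapped (0.10 ± 0.11, adjusted p = 0.458). Transcript levels say nothing of where the proteins were in the cell, which is how YAP and TAZ are mainly controlled.

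The TEAD factors, which carry the DNA-binding domain, differed from each other. TEAD4 (chr12:2959330-3040676) had 24.5 and 27.6 CPM in control shRNA, 50.7 and 51 in shEZH2 and 46 and 46.4 in shE2F1. Both knockdowns were thus well above control, by 0.95 ± 0.10 on the log2 scale in shEZH2 (adjusted p = 3.20e-05) and 0.82 ± 0.10 in shE2F1 (adjusted p = 0.000118). After correction for GC content and length the TEAD4 change in shEZH2 was 1.45. TEAD1 (chr11:12674421-12944737), the more abundant of the pair, had 335 and 329 CPM in control shRNA, 420 and 417 in shEZH2 and 285 and 300 in shE2F1. It rose in shEZH2 by 0.32 ± 0.08 (adjusted p = 0.00708), and in shE2F1 the change of -0.19 ± 0.08 did not pass (adjusted p = 0.0841). The rise of TEAD1 did not hold: it no longer passed when any 1 of the 4 libraries was left out (adjusted p 0.0122 to 0.032), and it was -0.03 with GC content and length corrected (adjusted p = 0.757).

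Of the 3 standard readouts, only CCN2 was called, and the 3 did not move together. CCN2 (chr6:131948176-131951372), connective tissue growth factor, a secreted matrix protein, had 246 and 302 CPM in control shRNA, 1018 and 1453 in shEZH2 and 110 and 119 in shE2F1. The 3 groups did not overlap, and the 2 shEZH2 libraries differed from each other more than those of the other 2 groups. The log2 change was 2.16 ± 0.16 in shEZH2 (adjusted p = 3.42e-06) and -1.26 ± 0.16 in shE2F1 (adjusted p = 1.00e-04). It was 1.90 to 2.39 and -1.41 to -1.10 when 1 library at a time was left out.

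CCN1 (chr1:85580761-85584589), which encodes CYR61, the closest relative of CCN2 among the readouts, had 1333 and 1396 CPM in control shRNA, 1475 and 1943 in shEZH2 and 1169 and 1251 in shE2F1. The order of the groups was that of CCN2 but the distances were small. Its log2 change was 0.31 ± 0.12 in shEZH2 (adjusted p = 0.0478) and -0.18 ± 0.12 in shE2F1 (adjusted p = 0.25). Without replicate 1 of shEZH2, the lower of the pair, the first was 0.49 (adjusted p = 0.00396).

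ANKRD1 (chr10:90912096-90921087), a cardiac ankyrin repeat protein that acts in the nucleus and the sarcomere, showed another order. It had 195 and 233 CPM in control shRNA, 222 and 257 in shEZH2 and 361 and 324 in shE2F1. It was highest in shE2F1, where CCN2 was lowest, and shEZH2 overlapped control. The log2 change was 0.15 ± 0.11 in shEZH2 (adjusted p = 0.286) and 0.67 ± 0.11 in shE2F1 (adjusted p = 0.000743). Without replicate 1 of shE2F1 the latter was 0.59 and no longer passed (adjusted p = 0.0158).

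The feedback genes went in opposite directions. AMOTL2 (chr3:134355347-134375479) encodes an angiomotin-like protein that binds YAP and holds it at junctions, and LATS2 (chr13:20973036-21061586) a kinase that phosphorylates YAP and TAZ. AMOTL2 had 193 and 201 CPM in control shRNA, 146 and 157 in shEZH2 and 102 in both shE2F1 libraries. It fell in shE2F1, with a log2 change of -0.96 ± 0.09 (adjusted p = 1.30e-05). In shEZH2 it fell too (-0.39 ± 0.09, adjusted p = 0.00284), but the change was -0.34 without replicate 1 of shEZH2 (adjusted p = 0.0241) and -0.18 with GC content and length corrected (adjusted p = 0.169). LATS2 had 49.5 and 52.1 CPM in control shRNA, 92.9 and 86.3 in shEZH2 and 85.3 and 89 in shE2F1. The 4 knockdown libraries lay together, all above control. LATS2 rose by 0.81 ± 0.09 in shEZH2 (adjusted p = 4.74e-05) and by 0.77 ± 0.09 in shE2F1 (adjusted p = 8.94e-05).

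AXL (chr19:41219223-41261766) had the largest decrease of the 10. It had 1938 and 2134 CPM in control shRNA, 678 and 477 in shEZH2 and 451 and 424 in shE2F1. Every knockdown library was below both controls by a wide margin. The log2 change of AXL was -1.83 ± 0.15 in shEZH2 (adjusted p = 5.33e-06) and -2.23 ± 0.15 in shE2F1 (adjusted p = 2.29e-06), and leaving out 1 library at a time gave -2.11 to -1.58 and -2.30 to -2.15.

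Genes that overlap the 10 on either strand held few counts. LINC01013, a long non-coding RNA on the strand opposite CCN2, reached at most 0.119% of the CPM of CCN2 in any library. The other overlapping genes that were found in the tables reached at most 0.351% of the member that they overlap (WWTR1-AS1 with WWTR1). Of the 50-base stretches of a member, at most 2.06% (AMOTL2, shared with the pseudogene RPL39P5) occurred in another gene.

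The 2 knockdowns were then compared with each other directly. The fit was that of all 6 knockdown libraries, so the control libraries also entered the estimate of the spread. CCN2 was 3.42 ± 0.17 higher on the log2 scale in shEZH2 than in shE2F1, a 10.7-fold difference (adjusted p = 1.88e-07), and it was the 1 member called, against 23.3% of all genes. TEAD1 (0.51 ± 0.08, adjusted p = 0.000336), AMOTL2 (0.57 ± 0.09, adjusted p = 0.000218) and CCN1 (0.49 ± 0.12, adjusted p = 0.00484) were also higher in shEZH2, and ANKRD1 was lower (-0.52 ± 0.11, adjusted p = 0.00218). These 5 of 10 members, 4 higher and 1 lower, compare with 46.4% of all genes at an adjusted p under 0.01 (23.3% higher and 23.2% lower). For LATS2 the difference was 0.04 ± 0.09, with an interval of -0.17 to 0.24. AXL differed by 0.39 ± 0.14 (0.08 to 0.71, adjusted p = 0.0347) and TEAD4 by 0.13 ± 0.10 (-0.09 to 0.36, adjusted p = 0.276).

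Some of these smaller differences depended on 1 library or on GC content. That of CCN1 no longer passed without replicate 2 of shEZH2 (0.29) or without replicate 1 or 2 of shE2F1 (0.44 and 0.54). That of ANKRD1 no longer passed without replicate 1 of shEZH2 (-0.42), without replicate 1 of shE2F1 (-0.44) and after correction for GC content and length (-0.35), and that of TEAD1 without replicate 1 of shE2F1 (0.47) and with that correction (0.16). AXL passed without replicate 2 of shEZH2 (0.64, adjusted p = 0.000946), and TEAD4 passed with GC content and length corrected (0.74, adjusted p = 0.000224).

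The inhibitor experiment asked about the enzyme activity of EZH2. Of 14632 genes, 0 (0%) were called by edgeR for GSK126 against DMSO, 577 had an unadjusted p under 0.05 and DESeq2 called 11. None of the 10 members passed, and ANKRD1 was the 1 member with an unadjusted p under 0.05. ANKRD1 had 191 and 207 CPM in DMSO and 289 and 278 in GSK126, so that the groups did not overlap (log2 change 0.51 ± 0.10, interval 0.26 to 0.76, adjusted p = 0.799). CCN2 had 266 and 415 CPM in DMSO and 393 and 577 in GSK126, where the groups overlapped (0.51 ± 0.25, interval -0.09 to 1.12, adjusted p = 1). TEAD4 had 18 and 20.2 CPM in DMSO and 21.5 and 27.2 in GSK126 (0.35 ± 0.16, adjusted p = 1).

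AXL stayed within a narrow range. It had 1301 and 1351 CPM in DMSO and 1221 and 1297 in GSK126 (-0.07 ± 0.09, interval -0.29 to 0.14). LATS2 had 51.5 and 52.1 CPM in DMSO and 52.9 and 48.4 in GSK126 (-0.03 ± 0.12, interval -0.32 to 0.25). For CCN1, AMOTL2, YAP1, WWTR1 and TEAD1 the log2 change was 0.23, 0.14, -0.19, -0.15 and -0.09. None of these passed in this fit, which does not pair libraries by replicate number. A fit with a term for that number is described at the end.

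Within a replicate number, CCN2, ANKRD1, CCN1, TEAD4 and AMOTL2 were higher with GSK126 in both replicates, YAP1, WWTR1, TEAD1 and AXL were lower in both, and LATS2 changed sign (0.04 and -0.11). How many of all genes kept their sign in this way was not counted, so the agreement is not a result about the members. GSK126 over DMSO gave a log2 ratio of 0.56 in replicate 1 and 0.48 in replicate 2 for CCN2, 0.60 and 0.42 for ANKRD1, 0.23 and 0.23 for CCN1, 0.25 and 0.42 for TEAD4 and 0.18 and 0.11 for AMOTL2. For the 4 that were lower it was -0.25 and -0.11 for YAP1, -0.10 and -0.20 for WWTR1, -0.10 and -0.08 for TEAD1 and -0.09 and -0.06 for AXL. Replicate 2 over replicate 1 in DMSO gave 0.64 for CCN2 and 0.35 for CCN1, as much as or more than between treatments. It gave 0.12 for ANKRD1 and 0.16 for TEAD4. In GSK126 the same ratio was 0.55 for CCN2, 0.34 for CCN1, -0.06 for ANKRD1 and 0.33 for TEAD4. For CCN2, CCN1 and TEAD4 the replicate numbers thus differed in the same direction with and without GSK126. The labels do not say that a number marks a shared culture or day.

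**Figure D3:**
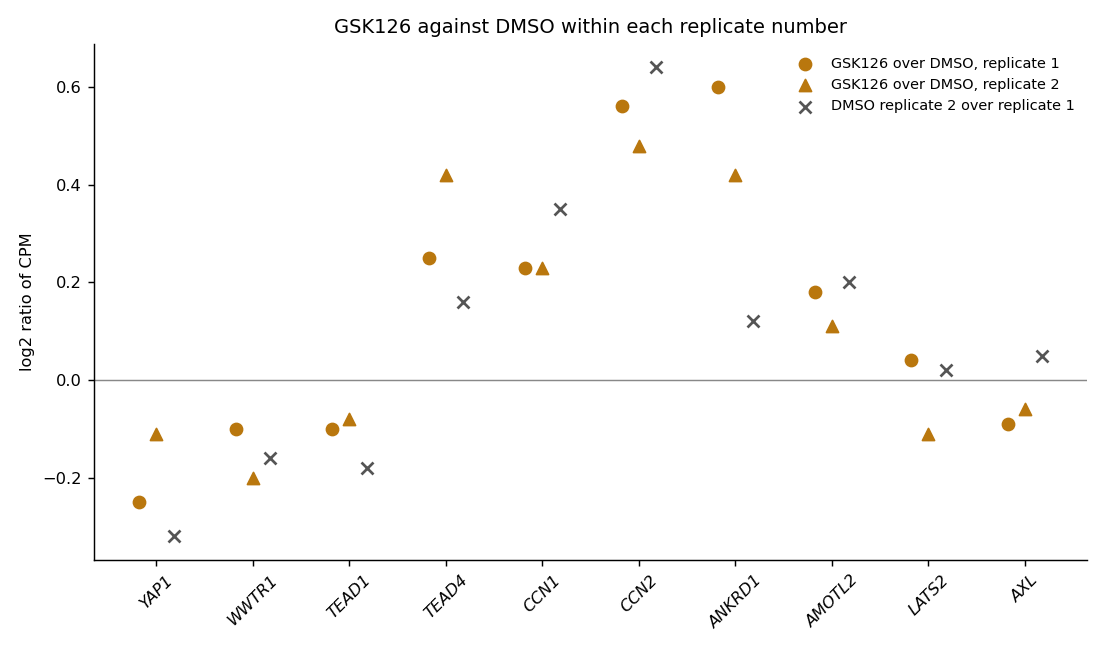
Log2 ratio of CPM (vertical axis) for each gene: GSK126 over DMSO in replicate 1 (circles) and replicate 2 (triangles), and DMSO replicate 2 over replicate 1 (crosses). CCN2 and ANKRD1 lie above 0 in both replicates, at 0.56 and 0.48 and at 0.60 and 0.42, and for CCN2 the cross, at 0.64, is higher than both.

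The effects of the EZH2 hairpin and of GSK126 were set against each other in 1 fit of all 10 libraries, as the log2 change of shEZH2 over control shRNA minus that of GSK126 over DMSO. Of the members, CCN2 and LATS2 had a higher value and AXL a lower one that passed an adjusted p under 0.01, beside 9.35% and 11.6% of 15773 genes (21.0% together), and 2 were called, beside 13.8%. The difference was 1.67 ± 0.32 for CCN2 (adjusted p = 0.00185), 0.85 ± 0.15 for LATS2 (adjusted p = 0.00103) and -1.74 ± 0.20 for AXL (adjusted p = 8.74e-05). CCN2 lost its call without replicate 1 of control shRNA (1.52, adjusted p = 0.0146) and without replicate 2 of shEZH2 (1.39, adjusted p = 0.0124). The other 7 members missed the threshold, among them TEAD4 at 0.61 ± 0.19 (adjusted p = 0.0252; 1.13 and called with GC content and length corrected), AMOTL2 at -0.52 ± 0.15 (adjusted p = 0.0172) and CCN1 at 0.09 ± 0.22 (adjusted p = 0.77). The hairpin and the inhibitor also differ in virus, selection and control, which cannot be told apart here: AXL was at 1938 and 2134 CPM in control shRNA and at 1301 and 1351 in DMSO.

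Other genes of the pathway were counted in the same fits, where 20.2% of all genes rose and 21.5% fell in shEZH2 and 13.6% rose and 16.5% fell in shE2F1. Among TEAD factors and their VGLL cofactors outside the members, 4 of 6 were tested, since VGLL1 and VGLL2 had no count in any library. VGLL3, a cofactor that competes with YAP for TEAD, had 7.25 and 5.88 CPM in control shRNA, 33.7 and 35.6 in shEZH2 and 24.9 and 15.8 in shE2F1. It rose by 2.38 ± 0.21 and 1.62 ± 0.21 on the log2 scale (adjusted p = 9.05e-06 and 0.000143). VGLL4, a repressor of TEAD, rose by 0.51 and 0.52, and TEAD2 fell (log2 change -1.12 in shEZH2 and -0.53 in shE2F1). TEAD3 fell by 0.90 in shE2F1 and had a log2 change of -0.32 in shEZH2 (adjusted p = 0.0162). VGLL4 in either knockdown and TEAD2 in shE2F1 no longer passed when single libraries were left out.

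Of 30 Hippo kinases, scaffolds and upstream regulators, 29 were tested, and 14 rose and 4 fell in shEZH2 and 7 rose and 3 fell in shE2F1, beside the 20.2% and 21.5% of all genes in shEZH2 and the 13.6% and 16.5% in shE2F1. The median log2 change was 0.41 and 0.04, beside -0.02 and 0.00 over all genes, but after correction for GC content and length 11 rose and 7 fell in shEZH2, with a median of 0.17. WWC1 (KIBRA, an activator of LATS) rose by 1.20 ± 0.10 in shEZH2, LATS1 by 1.03 ± 0.12 and the Ajuba family gene WTIP by 0.97 ± 0.10, while WWC3 (-1.96 ± 0.21), AJUBA (-1.23 ± 0.13) and WWC2 (-0.81 ± 0.10) fell. WWC1 and its paralogs WWC2 and WWC3 thus moved in opposite directions in the same cells, and in shE2F1 WWC2 (0.48 ± 0.09) and WWC3 (0.76 ± 0.19) rose, but no longer passed without single libraries. In shE2F1, SAV1, the scaffold of the MST kinases, rose by 1.72 ± 0.09, from 72.9 and 67 CPM to 237 and 226, and WTIP and LIMD1 rose by 1.29 ± 0.10 and 0.77 ± 0.09. TAOK1, MOB1A and PPP2R1A fell there (-0.57, -0.52 and -0.42), and each no longer passed without 1 or both of the shE2F1 replicates.

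The other 16 tested genes of a published YAP/TAZ target signature were divided. In shEZH2, 3 rose and 4 fell, and in shE2F1, 3 rose and 2 fell, beside 20.2% and 21.5% of all genes in the former and 13.6% and 16.5% in the latter, with median log2 changes of -0.16 and 0.00 (-0.02 and 0.00 over all genes). The 3 that rose were CCDC80, a matrix protein, by 1.40 ± 0.10 and 0.79 ± 0.10, IGFBP3, which binds insulin-like growth factors, by 1.22 ± 0.10 and 1.02 ± 0.09, and GADD45A, a stress gene that p53 also induces, by 0.89 ± 0.09 and 1.16 ± 0.09. FJX1 fell in both (-1.24 ± 0.16 and -0.95 ± 0.16). The tissue factor gene F3, at 967 and 1081 CPM in control shRNA, had 637 and 577 in shEZH2 and 1345 and 1284 in shE2F1. F3 fell in the former (-0.77 ± 0.10), and its 0.35 ± 0.10 in the latter missed the threshold (adjusted p = 0.0123). CRIM1 fell in shEZH2 (-0.59 ± 0.08) and NT5E, which encodes CD73, in shE2F1 (-0.67 ± 0.11). FJX1 in shE2F1 no longer passed without replicate 2 of that group and NT5E without replicate 1.

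AP-1 factors, which bind together with TEAD at many enhancers, and SRF, which shares ANKRD1, CCN1 and CCN2 as targets, were listed as well. Of 9 AP-1 subunits tested, 3 rose and 1 fell in shEZH2, and 3 rose and 3 fell in shE2F1. All genes gave 20.2% and 21.5% in shEZH2 and 13.6% and 16.5% in shE2F1, and the median log2 change of the subunits was 0.32 and -0.27, beside -0.02 and 0.00. ATF3, a stress-induced member, had 4.77 and 6.24 CPM in control shRNA, 41.5 and 50.6 in shEZH2 and 21.6 and 22.8 in shE2F1 (log2 change 3.06 ± 0.16 and 2.01 ± 0.16). JUNB rose by 1.26 ± 0.16 and 1.25 ± 0.16 and FOSL2 fell in both (-1.03 ± 0.11 in each). FOSL1, which encodes FRA1 (-1.20 ± 0.13), and JUN (-0.57 ± 0.08) fell in shE2F1, where FOSB rose by 1.72 ± 0.33 from under 2 CPM, but no longer passed without single libraries. JUND rose by 1.16 ± 0.21 in shEZH2.

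Of 17 genes of SRF, its MRTF cofactors and their targets, 15 were tested. In shEZH2, 10 fell and 1 rose, and in shE2F1, 7 fell and 0 rose, beside 21.5% of all genes that fell and 20.2% that rose in shEZH2 and 16.5% and 13.6% in shE2F1. The median log2 change was -0.63 and -0.23, beside -0.02 and 0.00. SRF itself had 89.6 and 99.5 CPM in control shRNA, 37.9 and 29.6 in shEZH2 and 31.2 and 29.7 in shE2F1, and fell in both (-1.50 ± 0.13 and -1.64 ± 0.13). TAGLN and MYL9, contractile genes, fell by far more in shEZH2 (-2.75 and -2.55) than the median of the list, and also in shE2F1 (-2.48 and -1.33). FLNA, the actin cross-linker filamin A, fell in shEZH2 (-1.50 ± 0.18), and TPM1, a tropomyosin, rose there by 1.23 ± 0.10. After correction for GC content and length 7 fell and 1 rose in shEZH2, with a median of -0.93.

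**Figure D4:**
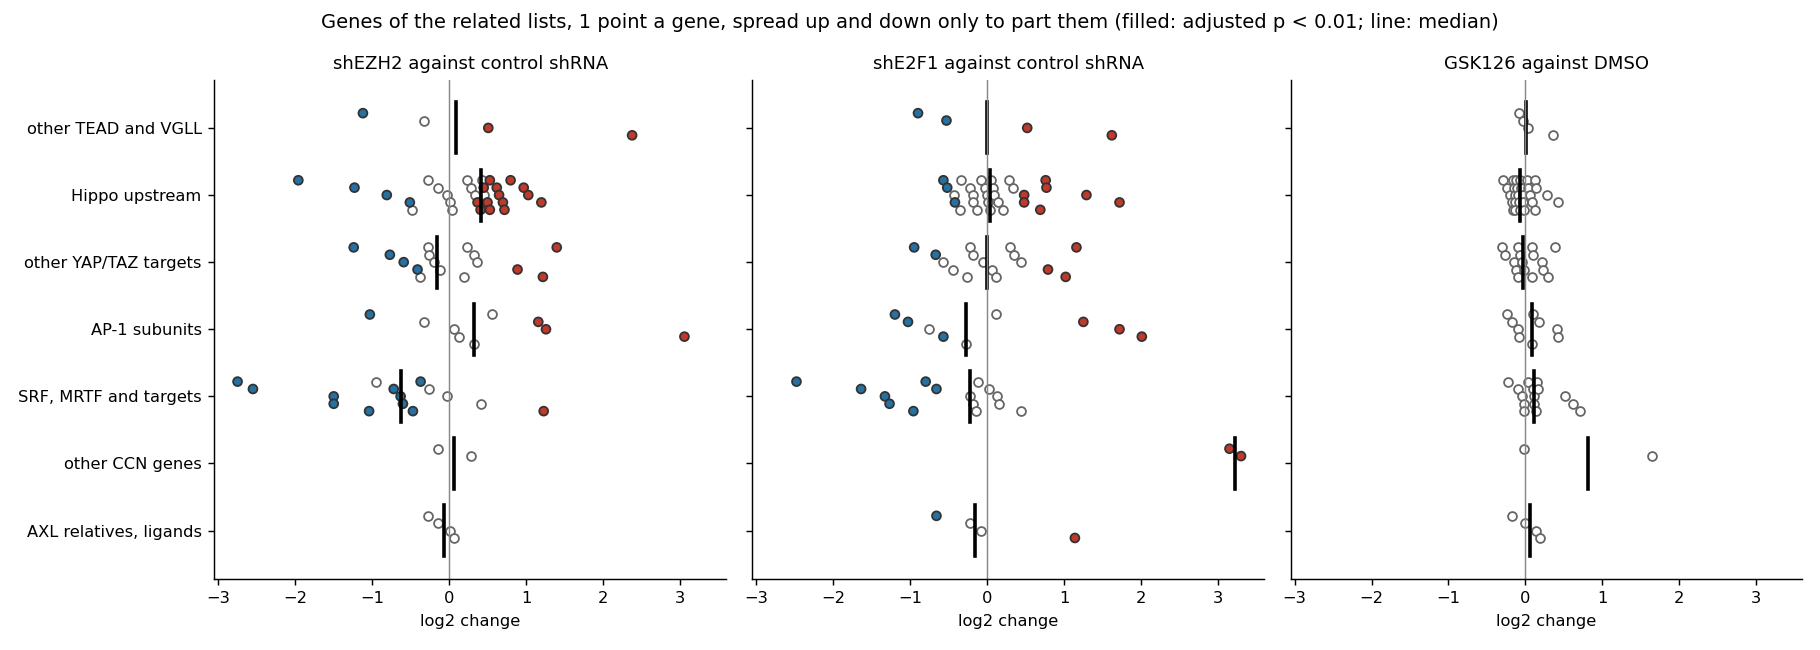
Log2 change (horizontal axis) of each tested gene of 7 related lists (rows) in shEZH2 and shE2F1 against control shRNA and in GSK126 against DMSO; filled points passed an adjusted p under 0.01 and vertical strokes are list medians. In shEZH2 the Hippo regulators have a median of 0.41 and the SRF list one of -0.63. Under GSK126 no point is filled, in a fit in which none of all 14632 genes passed.

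Other CCN genes and the relatives and ligands of AXL were listed too. Of the other CCN genes, CCN3 and CCN5 were tested, and both were low. CCN3 had 0.688 and 0.42 CPM in control shRNA, 0.903 and 0.518 in shEZH2 and 6.61 and 4.58 in shE2F1, and CCN5 had 0.477 and 0.24, 0.452 and 0.23, and 4.12 and 2.48. They rose in shE2F1 by 3.30 ± 0.40 and 3.15 ± 0.49, where CCN2 fell, and CCN5 no longer passed without replicate 1 of shE2F1. Of the AXL relatives and ligands, TYRO3 and MERTK, the other receptors of the family, passed in neither knockdown. GAS6, the ligand of AXL, had 361 and 298 CPM in control shRNA, 314 and 386 in shEZH2 and 206 and 214 in shE2F1, and fell in the last (-0.66 ± 0.12). PROS1, the other ligand, rose in shE2F1 by 1.14 ± 0.29 from under 6 CPM, and GAS6 and PROS1 no longer passed without single libraries. None of the genes of the 7 lists passed under GSK126, in a fit in which none of all 14632 genes passed. Their changes in a fit with a term for the replicate number are not given.

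For the 3 readouts and AXL, the genes with the most similar course over the 10 libraries were sought among 9635 genes with a mean of at least 10 CPM, by the root mean square (RMS) difference of log2 CPM after centring each gene. AXL was closest to RRM2, a subunit of ribonucleotide reductase, at an RMS difference of 0.16, to KIF20A, a mitotic kinesin (0.18), and to CST6, a cystatin (0.18), beside a spread of AXL itself of 0.83. RRM2 had 366 and 428 CPM in control shRNA, 161 and 87.9 in shEZH2, 82.1 and 66.9 in shE2F1, 215 and 251 in DMSO and 230 and 271 in GSK126. Like AXL, RRM2 was lower in DMSO than in control shRNA and lower still in both knockdowns. CCN2, with a spread of 1.13, had no neighbour as close: HMOX1, heme oxygenase, was at 0.32, PIK3CD at 0.34 and PLPP4 at 0.35. CCN1 (spread 0.27) was closest to AKR1B1 (0.12), NR2F6 (0.14) and SRI (0.15), and ANKRD1 (spread 0.30) to INO80C (0.13), MAPRE2 (0.14) and CTSL (0.15). No member was among the neighbours, because members were left out of the search, and these distances are descriptions over libraries that share their groups.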

How the data were processed

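RNA of MDA-MB-231 cells had been sequenced in 10 distinct libraries, 2 a group. Among the 18 sample records, 8 were exact repeats and were dropped. The labels gave each library its group and number. The authors deposited RSEM expected counts per gene, in which reads that map to several genes are divided, TPM (scaled by gene length and library by the authors) and effective lengths. The submitters' processing notes name STAR 2.7.2b and RSEM 1.3.1 on hg38. Whether counting used strand is not given in the sources used here.

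Expected counts were rounded and tested in R 4.3.3 with edgeR 4.0.16 (filterByExpr, TMM, quasi-likelihood F-test, p-values adjusted by Benjamini-Hochberg across every gene tested). The 6 knockdown and 4 drug libraries were fitted apart, and all 10 for the difference between hairpin and inhibitor. SE is the log2 change over the root of F. CPM was scaled by TMM over all 10 libraries, and TPM was used as deposited and in no test. Symbols and coordinates came from GENCODE release 44 (GRCh38), in which 62625 (99.9%) of the gene identifiers were found. The pipeline was tested on simulated data.

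The members, gene lists, naming rule and thresholds (those of the study, adjusted p under 0.01 and 2-fold) were chosen with earlier results of these data known. By the rule, the 10 members were named throughout, EZH2 and E2F1 as checks of the hairpins, up to 3 genes a direction with the largest change from each list and knockdown, and the 3 most similar profiles of CCN1, CCN2, ANKRD1 and AXL; other genes were named where a count or a comparison of the same gene needed them. Alternatives were DESeq2 1.42.0, its size factors, other filters, other sets of libraries, a replicate block, an effective length offset, a correction by splines (5 degrees of freedom) of GC content and log length, a threshold of 0.05 alone, and leaving out each library in turn.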

Additional observations from a re-analysis of the deposited data

Results flagged for a closer look

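The effect of the EZH2 hairpin differed from that of GSK126 for 3 of the 10 genes, by the test of the difference in 1 fit of all 10 libraries. At the same threshold (adjusted p under 0.01) 21.0% of all 15773 genes differed. CCN2 lost its call without replicate 1 of control shRNA and without replicate 2 of shEZH2. The difference of log2 changes (hairpin minus inhibitor) was 1.67 for CCN2, 0.85 for LATS2 and -1.74 for AXL. In each gene both shEZH2 libraries lay on 1 side of both control shRNA libraries. This was so for other members too, such as YAP1 (log2 ratio of mean CPM 0.11), and its share over all genes was not counted. For CCN2 the hairpin and inhibitor changes had the same sign, at 2.16 and 0.51, for LATS2 they were 0.81 and -0.03, and for AXL -1.83 and -0.07. Virus, selection and control also differ between hairpin and inhibitor and cannot be told apart here.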

How the results depend on the processing

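In both knockdowns the calls of CCN2 and AXL, and the changes of TEAD4 and LATS2 at an adjusted p under 0.01, kept their direction and side of the threshold in every alternative run. With an adjusted p under 0.05 and no fold, 8 of 10 members passed in shEZH2, beside 8550 of all 15373 genes. In shE2F1 6 members passed beside 6879 of 15373 genes, and between the knockdowns 6 beside 9267 of 15373. For hairpin minus inhibitor 7 members passed beside 5780 of 15773 genes. An offset from effective length turned small changes to 0.00 (YAP1) and -0.02 (WWTR1) in shEZH2, -0.05 (YAP1) in shE2F1, -0.05 (WWTR1) between the knockdowns and 0.02 (LATS2) under GSK126. The correction for GC content and length, alone and with the block, gave -0.10 (YAP1) and -0.03 (TEAD1) in shEZH2, and -0.13 (YAP1) and -0.02 (LATS2) between the knockdowns; the cause was not tested.

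Leaving out 1 library turned the sign of WWTR1 in shE2F1 (0.00 to 0.22), LATS2 between the knockdowns (-0.02 to 0.10), TEAD1 (-0.18 to 0.02) and LATS2 (-0.10 to 0.04) under GSK126 and CCN1 in hairpin minus inhibitor (-0.12 to 0.27). For hairpin minus inhibitor it left 1305 to 2414 genes and 1 to 2 members called, lowest without replicate 2 of shEZH2. For GSK126 it gave 37 to 43 calls where the full fit gave 0, with the lone library of a group assumed to vary like the other; none was a member.

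For GSK126, DESeq2 called 11 genes, the replicate block 68 and the block with the GC and length correction 86, none of them members. With the block, CCN2 (0.52), ANKRD1 (0.51), CCN1 (0.23), YAP1 (-0.18), TEAD4 (0.35) and AMOTL2 (0.14) passed an adjusted p under 0.01 at under 2-fold. The share of all genes that passed this threshold with the block was not counted, so this is not a result about the members. Over all genes, 3720 of 14632 had an unadjusted p under 0.05 with the block, and 577 without it. Once the block is fitted, the 4 libraries leave little spread to measure, so p-values of that fit are not given. DMSO and GSK126 libraries of 1 number deviated together (r = 0.7 over 11919 genes, which are not independent), and knockdown libraries hardly did (0.03 to 0.19), but with 2 numbers and nothing in the labels they share only a number. In the knockdowns TEAD1 in shEZH2 no longer passed an adjusted p under 0.01 with the block. For hairpin minus inhibitor the block added WWTR1 (0.49), TEAD1 (0.42), TEAD4 (0.62) and AMOTL2 (-0.52) at an adjusted p under 0.01. The share of all genes at that threshold was not counted there either. In these fits the block moved no other member across it. Depth limits little here: every member was far above 3 counts in every library.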
